A study of Homo sapiens with 2 samples.

Results

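SLPI, the secretory leukocyte peptidase inhibitor, was the 1 gene left to describe by a rule on symbols that takes the serpins of clades A to I and a few inhibitors of the Kunitz, Kazal and WAP types. The rule applies no threshold on a measured value, although it was written with earlier results of these data known. SLPI was the only such symbol among the 13753 genes named here, after 1059 small RNA symbols had been set aside. SLPI is not a serpin. The serpins and the other inhibitors of the rule are not analysed here, so the results describe SLPI, with inhibitors outside the rule and proteases given beside it.

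SLPI is a small secreted protein of mucosal surfaces, built of whey acidic protein (WAP) domains. It blocks serine proteases such as neutrophil elastase, cathepsin G and chymotrypsin, and it shields epithelia from enzymes released during inflammation. Secretory and surface epithelia of the airways, the gut and the genital tract are known sources. Genes of further WAP proteins, with WFDC symbols, lie near SLPI on the same chromosome arm.

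HT29 cells, an established line from a human colon adenocarcinoma, received either a control siRNA or 1 directed at GATA6, which encodes a GATA family regulator active in the proliferating crypts of the intestine. Total RNA of each condition was hybridized to 1 Affymetrix array. The sources used here state neither the time after transfection nor which of the GATA6 duplexes in the methods was used, and the control array carries the word reanalyzed in its title, without further detail. With 1 array per condition no difference has a replicate check and no p-value can be given.

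Each deposited value was centred on the median of both arrays, which leaves differences between the arrays and no expression levels. Whether SLPI or any other gene is expressed at a high or low level in HT29 cells cannot be read from them. They were taken as log2 values, although the sources used here do not state the base. GATA6, the target of the siRNA, stood at 0.58 in the control siRNA array and at -0.58 in the GATA6 siRNA array, which is 45.0% of the control value. GATA6 was thus lower in the array labelled as silenced.

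SLPI was somewhat higher after silencing of GATA6. Its value was -0.22 in the control siRNA array and 0.22 in the GATA6 siRNA array. The difference, GATA6 siRNA minus control siRNA, was 0.44 on the log2 scale, or 1.36-fold. This is just under the 1.4-fold size (0.49 on the log2 scale) that the methods of the study use for decreases and that was used here in both directions.

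SLPI therefore lay in the upper tail of the genes without being among those counted as higher. Of all 13753 genes, 3.56% were higher by over 1.4-fold (489 genes), 2.61% were lower (359 genes) and 6.17% differed in either direction. A difference as high as that of SLPI, or higher, was found in 604 genes (4.39%), and in 580 of the 11911 protein-coding genes (4.87%). Counting both directions, 7.66% of all genes lay as far from 0.

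**Figure D1:**
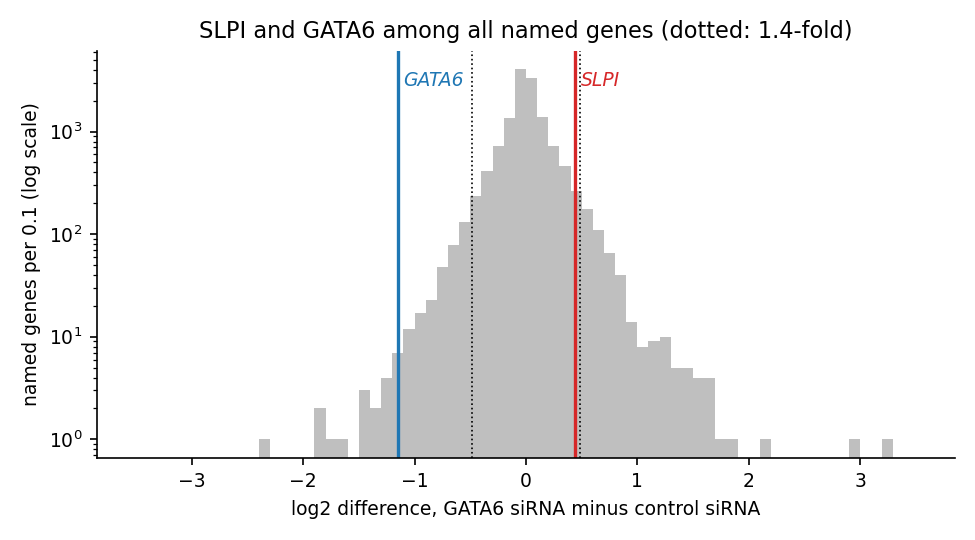
Histogram of the log2 differences (GATA6 siRNA minus control siRNA, x axis) of all 13753 named genes, as the number of genes per bin on a log axis (y axis). SLPI at 0.44 falls just inside the dotted line of a 1.4-fold increase, and GATA6 at -1.15 lies in the lower tail.

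The side of the 1.4-fold size on which SLPI falls depended on the scaling between the arrays. When the 50 ribosomal protein genes were set to a median difference of 0, which adds 0.12 to every gene, SLPI stood at 0.56 (1.48-fold higher) and passed 1.4-fold, as did 6.09% of all genes (837). With quantile normalization it stood at 0.41 (1.33-fold) and did not pass, whereas 412 of all genes did. SLPI was higher in the GATA6 siRNA array on all 3 scales, though adding 0.12 could not have changed its direction. Among all genes past 1.4-fold, the lower ones made up 42.3% as deposited, 19.2% with the ribosomal protein scale and 50.8% with quantile normalization. Because the 2 columns mirror each other, that last method makes rises and falls nearly symmetric by construction.

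SLPI was measured by 1 probe set, so a second reading of it on the same arrays does not exist. The spread between readings was taken from 470 other genes that had 2 probe sets, whose SD within a gene was 0.19 on the log2 scale. The difference of SLPI was 2.30 times this SD, which compares probe sets on the same arrays and holds no spread between replicate arrays. The SD of the differences of all named genes was larger, at 0.25. In the 470 genes 28 probe sets reached a difference at least as high as that of SLPI. The other probe set of the same gene was above 0 in 17 of the 28 cases and reached the size of SLPI in 4, with a median of 0.04 and a range from -0.39 to 0.69. Cases were counted per probe set, so a gene with both probe sets at that size was entered from each side. A single probe set at the size of SLPI was thus seldom matched by a separate probe set. Probe sets were paired by symbol, and whether both read the same transcript was not tested.

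The WFDC genes, relatives of SLPI by domain, lay near 0. Of 12 WFDC genes listed, 11 were named here, and 0 passed 1.4-fold in either direction on any of the 3 scales. Since 6.17% of all genes passed as deposited, which is under 1 in 11, nothing particular to the WFDC genes is read from this count. Their differences ran from -0.10 for WFDC1 to 0.12 for WFDC2, with a median of -0.0026 beside a median of 0 over all genes, and 0 of them reached the difference of SLPI. On the ribosomal protein scale the median was 0.12, the same as the shift of all genes. WFDC2, known as the tumor marker HE4, stood at -0.06 in the control siRNA array and at 0.06 in the GATA6 siRNA array. WFDC8 and WFDC10A were listed at exactly 0 in both arrays, as were 1865 probe sets of the whole table. A difference near 0 can come from a gene that is not expressed as well as from 1 that is expressed equally, and values without levels do not separate these.

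SLPI was also set beside its neighbours on the chromosome. Between WFDC5 and WFDC3 the annotation order held 18 named genes, SLPI and 10 of the WFDC genes among them. The other 7 ran from -0.03 for SDC4, a cell surface proteoglycan, to 0.10 for MATN4, a matrilin of the extracellular matrix that is the next named gene after SLPI. SEMG1 and SEMG2, the semenogelins on the opposite side of SLPI, are main proteins of the seminal clot and had differences of 0.10 and 0.04. The difference of SLPI was thus higher than that of each of the 17 other named genes of this stretch. Over all genes only 4.39% reached it, so nothing particular to this stretch is read from that. Whether these neighbours are expressed in HT29 cells cannot be read from the values. On the ribosomal protein scale, the highest of the 17 was WFDC2 at 0.24, against 0.56 for SLPI.

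**Figure D2:**
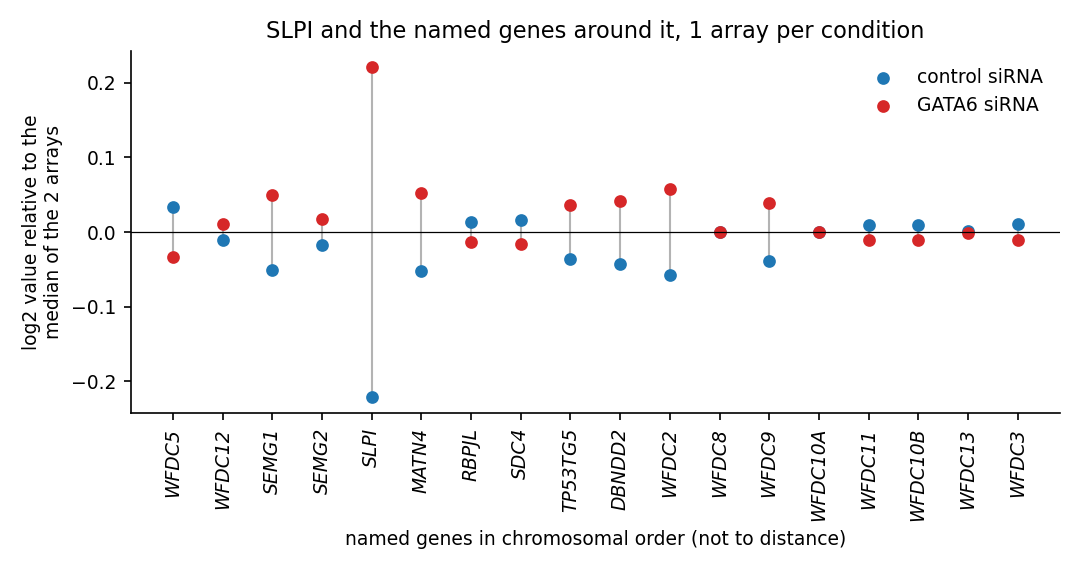
Log2 values (y axis, centred on both arrays) of SLPI and the 17 named genes around it in chromosomal order (x axis, not to distance), with 1 point for the control siRNA array and 1 for the GATA6 siRNA array. The points of SLPI at -0.22 and 0.22 are farther apart than those of any other gene shown, and WFDC8 and WFDC10A sit at 0.

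Among the proteases that SLPI is known to block, cathepsin G (CTSG) had a difference of 0.09 and the chymotrypsinogens CTRB1 and CTRB2 had differences of -0.21 and 0.01. As deposited, none of these reached the SD between probe sets of 1 gene (0.19) except CTRB1. On the ribosomal protein scale CTRB1 stood at -0.09 and did not reach it, whereas CTSG at 0.21 did. Neutrophil elastase was not analysed here. In the wider list of granule and lysosomal proteases, 25 of 39 genes were named, 1 was lower and 1 higher by over 1.4-fold (2.61% and 3.56% of all genes), and the median was 0.04 beside 0 over all genes. CTSB, a lysosomal cysteine protease, also passed on the ribosomal protein scale (1.45-fold). The lower gene was CTSE, an aspartic protease of the stomach and of metaplastic gut epithelium (-1.64, 3.11-fold). The higher gene was CTSZ, a lysosomal carboxypeptidase (0.70, 1.63-fold), and it was the only member of this list with a difference above that of SLPI. CTSE and CTSZ are not serine proteases.

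Inhibitors outside the rule were examined in the same way. Their list held 64 genes, of which 43 were named, the WFDC genes included, and its median was 0.02. In this list 3 genes were higher and 1 lower by over 1.4-fold, and 4 had differences above that of SLPI. Over all genes these shares were 3.56%, 2.61% and 4.39%, and nothing particular to inhibitors is read from these small counts. The higher genes were TIMP2 (2.30-fold) and TIMP1 (1.66-fold), inhibitors of matrix metalloproteinases, and CAST (1.79-fold), the inhibitor of the calpains. The fourth above SLPI was XIAP, an inhibitor of caspases, at 0.48, which passed 1.4-fold on the ribosomal protein scale (1.52-fold). TFPI, a Kunitz inhibitor of the tissue factor pathway, was the lower gene (1.80-fold). Each of the 4 genes past 1.4-fold was measured by 1 probe set.

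Among trypsin-like proteases and their receptors no named gene reached the difference of SLPI. Over all genes 4.39% reached it and 6.17% passed 1.4-fold in either direction, so nothing particular to these short lists is read from their counts. Of 28 genes of plasminogen activation and coagulation, 15 were named and 0 passed 1.4-fold, with a median of 0.0037. The farthest were the anticoagulant cofactor PROS1 (0.41), protein C, PROC (0.25), and the thrombin receptor F2R (0.17). Of 25 genes of membrane serine proteases and of HGF with its receptor, 7 were named and 0 passed, with a median of -0.04. Here ST14, which encodes matriptase, an epithelial surface protease, stood at 0.39, close to SLPI, while MST1 (0.10) and MET (-0.08) were nearer to 0. On the ribosomal protein scale PROS1 (1.45-fold) and ST14 (1.43-fold) passed 1.4-fold together with SLPI, and MET was above 0 (0.04).

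Both lists drawn up around serpin partners are given for completeness, since no serpin was followed. Of 24 genes of collagen folding 10 were named and 0 passed 1.4-fold, with a median of -0.06, and CRTAP (-0.40), CANX (-0.37) and P3H1 (0.36) were the farthest. Of 10 receptors that clear complexes of inhibitor and protease 7 were named and 0 passed, with a median of -0.02. Over all genes 6.17% passed in either direction, so nothing particular to either list is read from these counts. LRP1, an endocytic receptor, stood at 0.39 and passed 1.4-fold on the ribosomal protein scale (1.42-fold), VLDLR stood at -0.22 and ASGR1 at -0.05, which turned to 0.07 on that scale.

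**Figure D3:**
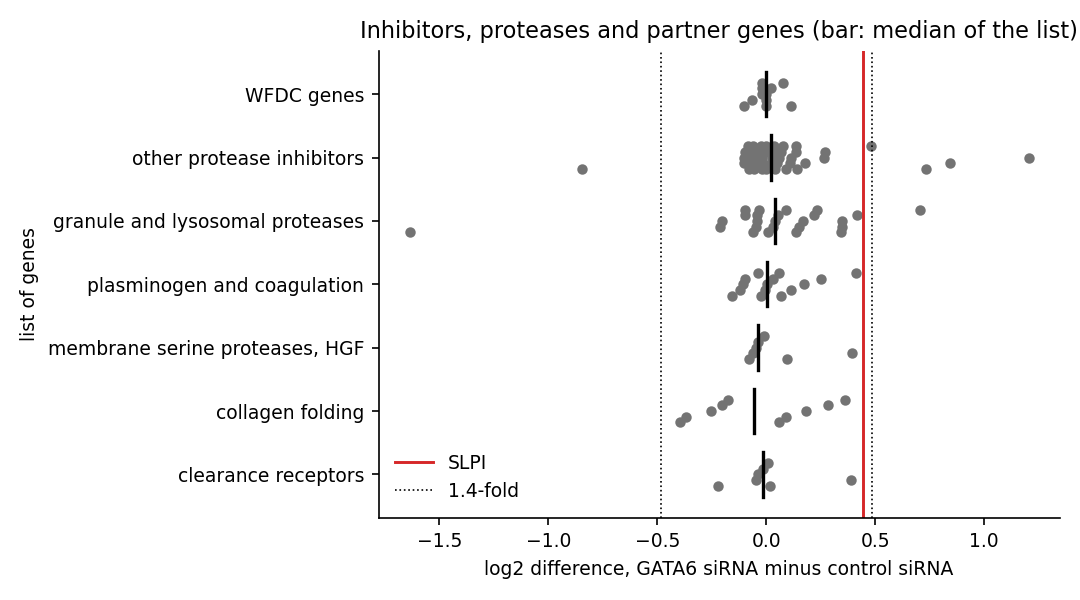
Log2 differences (GATA6 siRNA minus control siRNA, x axis) of the named genes of 7 lists (y axis), with a point per gene, a bar at the median of each list and WFDC genes shown both alone and among the other inhibitors. The red line marks SLPI at 0.44, which only CTSZ, XIAP, TIMP1, CAST and TIMP2 exceed.

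Markers of colon epithelium were given beside SLPI. Of 12 markers 10 were named, 9 were above 0 and 4 were higher by over 1.4-fold, with a median of 0.28, beside 3.56% higher and a median of 0 over all genes. These 4 were CEACAM5, which encodes carcinoembryonic antigen (2.16), the keratins KRT20 (1.89) and KRT19 (0.54), and the adhesion molecule EPCAM (0.49). With quantile normalization 3 of the 10 were higher by over 1.4-fold, beside 412 of all 13753 genes. EPCAM, just past that size as deposited, stood at 0.46 with this method and did not pass. The part of these markers in the difference of SLPI was not tested. Markers of hepatocytes, stratified epithelium, fibroblasts and leukocytes held 18 named genes of 29, of which 0 passed 1.4-fold, beside 6.17% of all genes. The 4 medians were 0.04, -0.0050, -0.10 and -0.04, and the farthest gene was LYZ, lysozyme, at 0.47 as the mean of 2 probe sets. LYZ was the only 1 of the 18 to pass on the ribosomal protein scale.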

How the data were processed

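The authors profiled total RNA of HT29 cells on Affymetrix Human Gene ST arrays, 1 per condition, with GeneSpring as software. The authors deposited 1 table of log values, taken here as log2, for 44629 probe sets, in which the 2 columns are equal and opposite within 1e-06 and both have a median of 0. The log base, summarization, normalization and filters were not given in the sources used here. Depth is not defined for arrays, and their number limits the precision.

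Symbols came from the annotation of the array (15835 probe sets with 1 symbol, 28794 unnamed), and gene class and order from GRCh38.p14. Coordinates were left out, because the build behind the array is not stated. Probe sets of the same symbol were averaged. Groups followed the treatment in the labels. The gene and the 11 lists were chosen with earlier results of these data known. Genes were named if they belonged to the rule, were past 1.4-fold in a list, or were among the 3 farthest from 0 in a partner list with none past it. XIAP, CTSB, CTSG, CTRB1, CTRB2, LYZ, the named WFDC genes and the neighbours of SLPI were named after their values were seen. Scaling, fold size and probe set handling were varied. The scripts (Python 3.11.15, pandas 2.3.3, numpy 2.4.6) were tested on simulated data.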

Additional observations from a re-analysis of the deposited data

How the results depend on the processing

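No paired analysis was possible because there was only 1 array per condition, and for the same reason no replicate could be left out. The planned median of clade B serpins was not run, since no such gene was named here. The difference of SLPI was 0.44 as deposited, 0.56 with the ribosomal protein genes set to a median difference of 0 and 0.41 with quantile normalization, and that of GATA6 was -1.15, -1.03 and -1.29, shifts smaller than the probe set SD of 0.19. Of the genes of the symbol rule, SLPI alone was named, and it was counted as higher (1 gene) with the ribosomal protein scale and with a 1.2-fold size and not (0 genes) in the other settings. Over all genes, the ribosomal protein scale gave 199 lower and 837 higher genes, a 2-fold size 33 and 50, and a 1.2-fold size 1190 and 1408, the last 2 by construction of the count. Of 39 alternative values, 31 stayed within these limits (1.5 times for counts). Most of the 39 were counts, which cannot change sign, and the others, all for SLPI or GATA6, kept theirs. With 1 probe set, SLPI kept its value by construction in the settings on probe set handling, so this tally is no measure of robustness. The distance of the signals from background cannot be known without levels.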
